A study of Mus musculus with 3 samples.

Results

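The circadian clock genes are followed here in cells of mT3-2D-GFP, a mouse pancreatic tumour line of the KPC model that carries green fluorescent protein (GFP), through 10 genes chosen by symbol: Per1, Per2, Per3, Cry1, Cry2, Nr1d1, Nr1d2, Arntl, Clock and Dbp. All 10 were present in the authors' deposited table, with 16 RefSeq transcripts between them, out of 11886 genes and 17910 transcripts in all. The groups were GFP-positive cells sorted from tumours that the line formed in wild-type (WT) C57BL/6 mice, the same kind of cells sorted from tumours in B6.CB17-Prkdcscid/SzJ (SCID) mice, a strain without mature lymphocytes of the T and B lineages, and the line itself kept in culture. RNA of 6 WT tumours was pooled in equal amounts, as was RNA of 5 SCID tumours, so each group was 1 library. The line is of C57BL/6 origin, and the tumour cells of both hosts come from this 1 line. The labels give no age of the mice and no hour at which tumours or cultures were collected.

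The clock is a transcriptional loop found in most mammalian cells. CLOCK and BMAL1, the protein of Arntl, pair on E-box sequences and switch on the Per, Cry and Nr1d genes as well as Dbp. PER and CRY proteins return to the nucleus and block that pair, and the REV-ERB proteins of Nr1d1 and Nr1d2 repress Arntl from ROR elements, so that in tissues with a running clock Arntl and Nr1d1 RNA peak at different times of day. DBP carries the rhythm outwards by activating genes with D-box sequences. Per1 is also known as a gene that stimuli such as serum, cAMP and glucocorticoids induce directly.

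The sequences before the transcript starts are shown for Per1, Nr1d1, Per3 and Cry1, because promoters of clock genes are where the loop is known to act. All of these genes held a match to a searched motif. Per1, Nr1d1 and Per3 stood above 0 against the line and Cry1 near 0. Other clock genes also stood above or near 0 and are not shown. No binding was measured here. Each sequence is 250 bases, read 5′ to 3′ on the strand of the gene, from RefSeq on GRCm38.p6. Capitals mark the E-box CACGTG, its variant CACGTT and the D-box forms TTATGTAA and TTATGCAA, searched on both strands, so that the variant can read AACGTG. The Per1 stretch before NM_011065 is chr11:69098699-69098948 on the plus strand, and that before NM_001159367 is chr11:69099902-69100151. The Nr1d1 stretch is chr11:98775378-98775627, the Per3 stretch chr4:151044666-151044915 and the Cry1 stretch chr10:85185055-85185304, each on the minus strand.
Per1 before NM_011065: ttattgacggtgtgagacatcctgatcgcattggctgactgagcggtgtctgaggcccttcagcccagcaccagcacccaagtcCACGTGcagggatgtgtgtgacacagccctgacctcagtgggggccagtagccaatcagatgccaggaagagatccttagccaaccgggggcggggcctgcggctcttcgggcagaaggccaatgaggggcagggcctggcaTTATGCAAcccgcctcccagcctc
Per1 before NM_001159367: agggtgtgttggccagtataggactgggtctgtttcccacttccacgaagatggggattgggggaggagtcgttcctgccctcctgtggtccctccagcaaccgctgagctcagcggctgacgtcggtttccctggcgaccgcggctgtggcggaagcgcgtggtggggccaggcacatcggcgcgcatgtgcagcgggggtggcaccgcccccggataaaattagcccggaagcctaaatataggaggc
Nr1d1: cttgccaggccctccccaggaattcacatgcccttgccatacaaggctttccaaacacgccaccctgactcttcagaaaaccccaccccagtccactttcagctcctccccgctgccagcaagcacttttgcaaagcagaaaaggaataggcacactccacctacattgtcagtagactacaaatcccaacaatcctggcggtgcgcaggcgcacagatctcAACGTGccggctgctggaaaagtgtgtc
Per3: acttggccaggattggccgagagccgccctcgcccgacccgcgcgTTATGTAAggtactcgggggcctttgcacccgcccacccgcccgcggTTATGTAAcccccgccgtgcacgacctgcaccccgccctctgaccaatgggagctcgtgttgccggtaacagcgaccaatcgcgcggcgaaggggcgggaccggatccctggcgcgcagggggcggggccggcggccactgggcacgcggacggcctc
Cry1: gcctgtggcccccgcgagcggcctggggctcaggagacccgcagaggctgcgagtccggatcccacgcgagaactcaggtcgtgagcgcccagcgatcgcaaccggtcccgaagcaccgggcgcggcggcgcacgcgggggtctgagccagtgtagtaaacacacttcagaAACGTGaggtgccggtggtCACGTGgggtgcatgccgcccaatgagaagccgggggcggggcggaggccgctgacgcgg

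Of the 10 genes, 9 had promoters in the RefSeq table, 13 in all. Per2 had none there, so no promoter of Per2 was searched. The E-box stood before Per1, at 166 bases before the start of NM_011065, and before Cry1, at 60 bases. Among all 32851 promoters in the table, 6.02% held it in the same window. The variant stood before Cry1 at 79 bases, Cry2 at 166 bases and Nr1d1 at 28 bases, against 3.85% of all promoters. TTATGTAA occurred at 2 places before Per3, 205 and 158 bases from the start, against 0.819% of all promoters, and TTATGCAA at 24 bases before Per1, against 0.694%. No match overlapped another. The ROR element cores TAGGTCA and TGGGTCA, in 2.23% and 3.24% of all promoters, and the cAMP response element TGACGTCA, in 1.55%, had no match in these windows. The promoters of Arntl, Clock, Nr1d2 and Dbp had no match to any searched motif in these windows. A match describes the letters only.

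**Figure D1:**
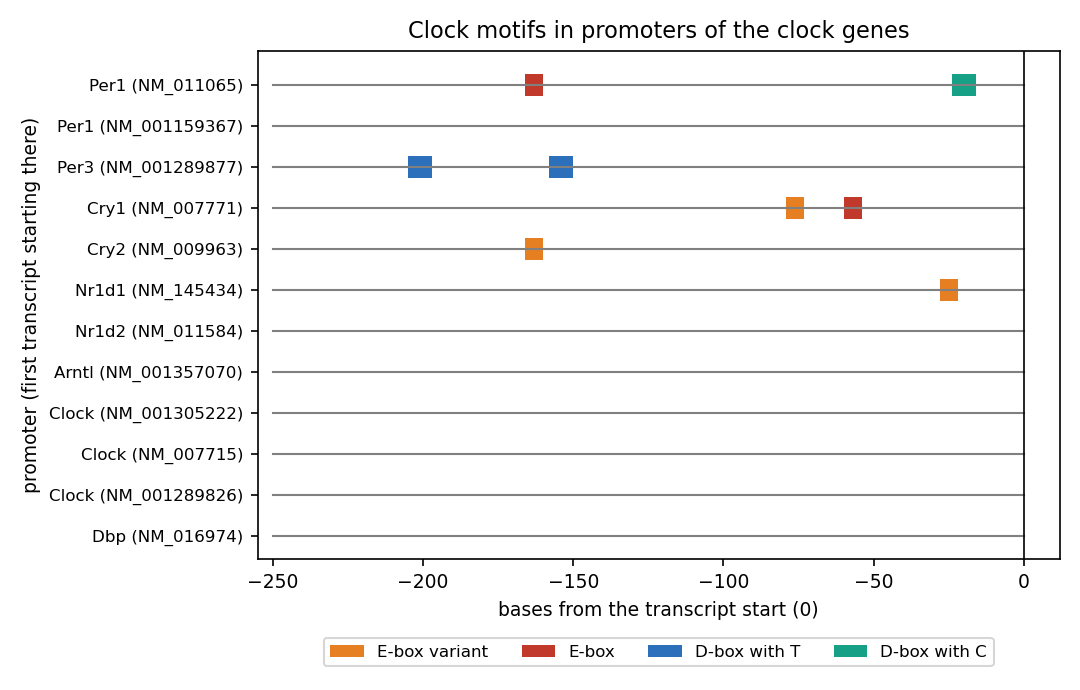
Places of the searched motifs in the 250 bases before the 12 starts that match a clock gene transcript in the deposited table (x axis, bases from the start; 1 line per promoter; coloured blocks, motifs). Per1 before NM_011065 and Cry1 have 2 motifs of different kinds, Per3 has the same D-box form at 2 places, and the second Per1 start has none.

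The deposited values are differences between libraries on the log2 scale, and no level per library is given, so each gene is described by its difference and not by its abundance. A gene's value is the mean over its transcripts. With 1 library a group no difference was tested and none has a replicate check, and of the depth only a stated mean of 40000000 reads per library is known. The comparisons of WT and of SCID with the line share the line's library, so their likeness is no second observation. In bulk RNA a change in the cells present and a change in RNA per cell cannot be told apart.

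Of the 7 repressor genes of the clock, 6 were above 0 in tumour-derived cells against culture in each comparison, where 48.6% of all genes were in WT minus line and 48.3% in SCID minus line. Per1 was highest and the only one past 2-fold, in WT minus line, and Cry1 lay near 0. Per1 encodes a period protein that blocks CLOCK and BMAL1. Its transcript NM_001159367 stood at 1.09 in WT minus line and 0.98 in SCID minus line, and NM_011065 at 1.08 and 0.97 in the same order of comparisons. The 2 transcripts start at separate promoters and differed by 0.01 in each comparison, and both passed 2-fold in WT minus line, where 4.32% of all transcripts did. They end at the same base and are 4636 and 4671 bases long, so reads may be shared between them. Their likeness is therefore no second observation. As a gene Per1 was 2.12-fold higher in WT tumour cells than in the line and 1.97-fold higher in SCID tumour cells than in the line. It ranked at percentile 96.7 of all genes in WT minus line and 96.2 in SCID minus line. Once a trend with GC content and transcript length was taken out, its value in WT minus line was 0.88, below 2-fold.

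Per2 and Per3, the other period genes, stood lower than Per1. Per2 (NM_011066) was at 0.44 in WT minus line and 0.36 in SCID minus line. The 3 Per3 transcripts lay between 0.41 and 0.45 in WT minus line. In SCID minus line NM_011067 was at 0.59, while NM_001289877 and NM_001289878 were at 0.28 and 0.27. With the GC and length trend taken out, Per2 was at 0.27 and 0.23 and Per3 at 0.28 and 0.26. Each period transcript was above 0 as deposited against the line in both hosts.

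The cryptochromes, partners of the period proteins and the strong repressors of the loop, went different ways. Cry2 (NM_009963) was at 0.40 in WT minus line and 0.39 in SCID minus line, or 1.32-fold and 1.31-fold. Cry1 (NM_007771) was at -0.05 and -0.03 in those comparisons, which is percentile 47.1 and 48.2 of all genes. Cry1 thus lay near the median gene and Cry2 at percentile 82.2 and 81.5.

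The REV-ERB genes, nuclear receptors that repress Arntl, were both above 0. Nr1d1 (NM_145434) was at 0.71 in WT minus line and 0.68 in SCID minus line, and ranked second among the 10 in each. Its 3′ end shares 1075 bases with Thra, the thyroid hormone receptor alpha gene on the opposite strand, which was at 0.50 and 0.44. The libraries were stranded, but whether strand was used in counting is not given in the sources used here, so reads of this pair may be shared. Nr1d2 (NM_011584) was at 0.17 in WT minus line and 0.33 in SCID minus line.

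The activator genes differed from each other and between their own transcripts. Arntl, encoding BMAL1, had NM_001357070 at 0.61 in WT minus line and 0.07 in SCID minus line, whereas NM_007489 was at 0.11 and 0.33. The transcript that stood higher in 1 host was therefore the lower one in the other. The gene means were 0.36 and 0.20. Without the GC and length trend, and on NM_007489 alone, Arntl was at 0.14 and 0.36. Clock had NM_007715 at -0.40 and -0.49, NM_001305222 at -0.09 and -0.16 and NM_001289826 at -0.18 and 0.01, with gene means of -0.22 and -0.21, or -0.28 and -0.35 without that trend. The starts of the 3 Clock transcripts differ, and the lowest of the 3 was NM_007715 in both comparisons. How reads were divided among transcripts of 1 gene is not given, so these splits are less certain than the gene means.

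Dbp (NM_016974), an output gene and direct target of CLOCK and BMAL1, was at -0.02 in WT minus line and -0.07 in SCID minus line. It thus lay near the median of all genes while Per1 and Nr1d1, targets of the same pair, stood at percentile 91.5 or higher in both. Dbp shares 741 bases with Sphk2, a sphingosine kinase gene on the other strand, which was at 0.11 and -0.07.

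**Figure D2:**
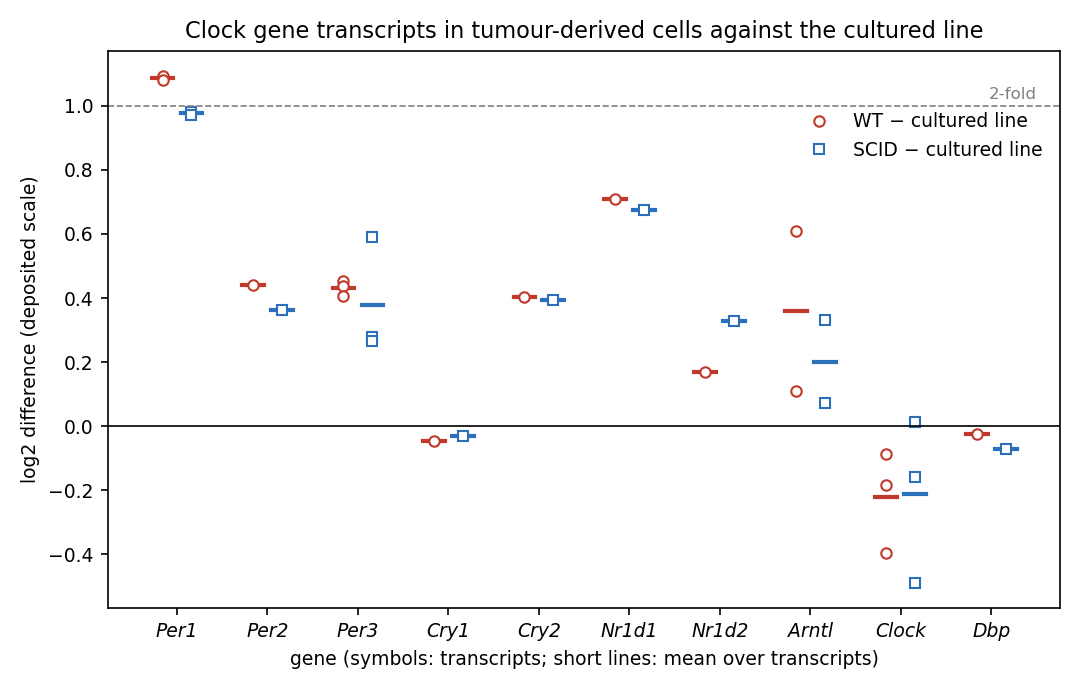
Log2 difference of each clock gene transcript from the cultured line (y axis; circles, WT minus line; squares, SCID minus line; short lines, gene means; dashed line, 2-fold). Per1 lies at the 2-fold line in both, Nr1d1 follows at 0.71 and 0.68, and Clock has the lowest means at -0.22 and -0.21.

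Across the 10 genes, 7 were above 0 in WT minus line and 7 in SCID minus line, where 48.6% and 48.3% of all genes were. Their medians were 0.38 and 0.34, against medians of -0.01 and -0.02 over all genes. Without the GC and length trend the medians were 0.23 and 0.27. In WT minus line 1 of the 10, Per1, was higher by 2-fold or more, as were 4.12% of all genes, and 0 were lower by 2-fold, as were 2.03%. In SCID minus line 0 were higher by 2-fold and 0 lower, against 3.65% and 2.62% of all genes, with Per1 just below it at 0.98. At 1.5-fold Per1 and Nr1d1 were higher in both comparisons, that is 2 of 10, where 11.3% and 11.0% of all genes were, and 0 of 10 were lower, where 8.36% and 9.43% were. With 10 genes, counts of 1 and 2 are too few to set apart from these shares.

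Per1, Nr1d1 and Clock held the same places in the order in both comparisons, first, second and last. Transcripts of 1 gene, over all genes with several, had a pooled SD of 0.31 in WT minus line and 0.33 in SCID minus line, the only spread the table offers. Per1 stood 0.38 above Nr1d1 in WT minus line, more than that SD, and 0.30 above it in SCID minus line, less than it. That SD measures neither the error between libraries nor that of a gap between genes, so it does not set Per1 apart. Nr1d1 stood 0.27 and 0.28 above the next gene and Clock 0.18 and 0.14 below its neighbour. With no measure of error for such gaps, these places cannot be called set apart either. Per2, Per3, Cry2 and Arntl followed each other in WT minus line by gaps of 0.01 to 0.05. These 4 cannot be ordered among themselves.

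**Figure D3:**
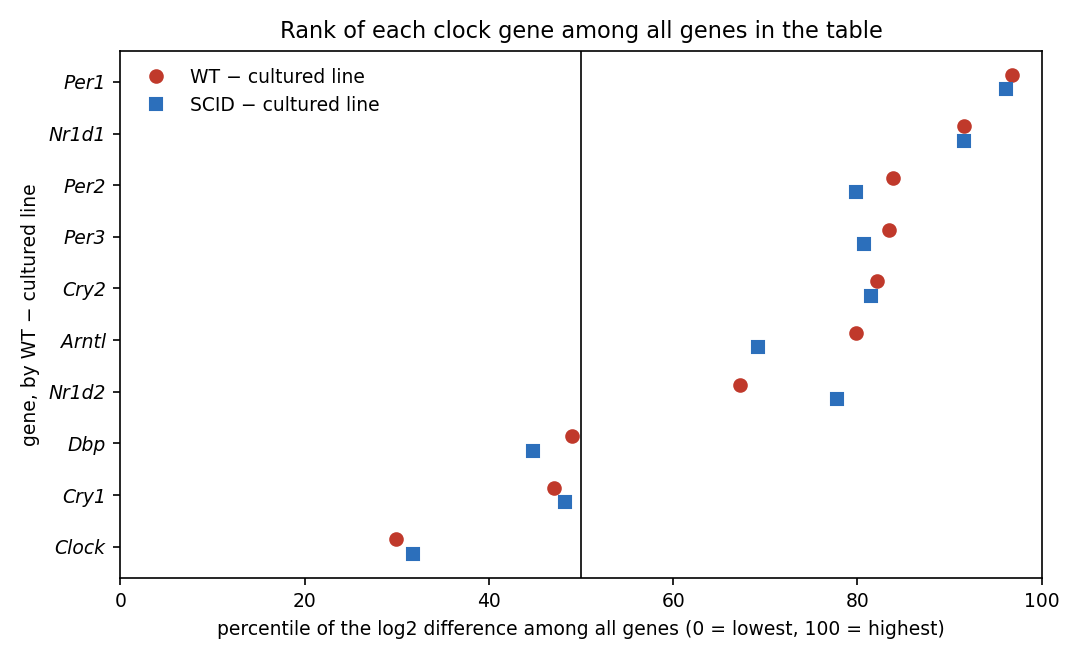
Percentile of each clock gene's log2 difference among all 11886 genes (x axis; circles, WT minus line; squares, SCID minus line; genes ordered by WT minus line). Per1 and Nr1d1 lie at percentile 91.5 or higher in both comparisons, and Dbp, Cry1 and Clock lie below 50.

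Between the hosts the clock genes differed little, and so did most genes, with quartiles of -0.07 and 0.08 over all genes. In WT minus SCID the 10 gene values lay between -0.16 and 0.16, where the range from the 5th to the 95th percentile of all genes ran from -0.21 to 0.26. The highest were Arntl at 0.16, percentile 88.5 of all genes, and Per1 at 0.11. Per2 followed at 0.08, Per3 and Dbp at 0.05, Nr1d1 at 0.03 and Cry2 at 0.01. Clock and Cry1 were at -0.01, and the lowest was Nr1d2 at -0.16, percentile 9.57 of all genes. The median was 0.04, against 0.00 over all genes, and 7 of 10 were above 0, where 51.5% of all genes were. No clock gene was 2-fold higher, as 0.303% of all genes were, or 2-fold lower, as 0.0168% were. At 1.5-fold the clock genes higher and lower were again 0, against 1.10% and 0.177% of all genes. With 10 genes, counts of 0 cannot be set apart from these shares. After removal of the GC and length trend the median was -0.02, and Dbp, Nr1d1 and Cry2 were below 0 and Clock above 0. Arntl, then on NM_007489 alone, was also below 0.

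Single transcripts spread more widely than the genes in this comparison. Arntl NM_001357070 was at 0.54 and NM_007489 at -0.22 in WT minus SCID, a range of 0.76 within 1 gene, so the gene mean describes neither. The GC-adjusted Arntl value of -0.22 rests on NM_007489 alone, because NM_001357070 had no matched sequence. Per3 had NM_001289877 and NM_001289878 at 0.17 and NM_011067 at -0.18. Clock had NM_007715 at 0.09, NM_001305222 at 0.07 and NM_001289826 at -0.20. Per1 had both transcripts at 0.11, which are not independent readings. The pooled SD between transcripts was 0.22 over all genes, more than the distance of any clock gene mean from 0. It is not the error of a gene mean or of a library, so it decides nothing about these means.

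**Figure D4:**
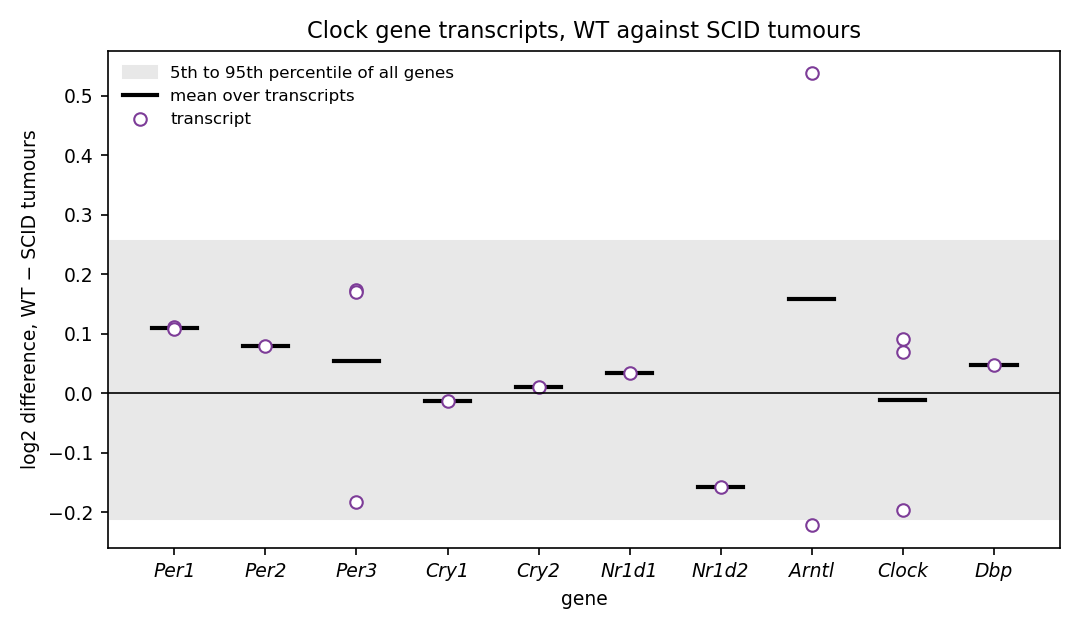
Log2 difference of each clock gene transcript between WT and SCID tumours (y axis; circles, transcripts; black lines, gene means; grey band, 5th to 95th percentile of all genes). The gene means lie inside the band, and the Arntl transcripts at 0.54 and -0.22 lie outside it on opposite sides.

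The wider clock network was described through lists of known clock regulators and outputs. Of the other activators and cofactors 9 of 10 were in the table, with a median of 0.34 in WT minus line and 0.39 in SCID minus line. Arntl2, a paralogue of Arntl, was at 0.61 and 0.74, Kmt2a, a histone H3 methyltransferase, at 0.54 and 0.57, and Sirt1, a deacetylase, at 0.34 and 0.59. Kat2b, an acetyltransferase, was lowest at -0.68 and -0.35, then Hdac3, the deacetylase that works with REV-ERB proteins, at -0.16 and -0.10. In WT minus SCID 2 of the 9 were above 0, where 51.5% of all genes were. Crebbp, an acetyltransferase, was at 0.02, and Kat2b (-0.33) and Sirt1 (-0.25) were the lowest.

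The ROR and other loop repressors had 6 of 8 genes in the table and medians of 0.09 in WT minus line and 0.15 in SCID minus line. Rorb, a receptor that activates from ROR elements, was at 0.91 and 0.99. Bhlhe40, a repressor that binds E-boxes and is also induced by hypoxia, was at 0.87 and 0.75. Its paralogue Bhlhe41 was at -0.31 and -0.34, and Nono, a PER-associated RNA-binding protein, at -0.24 and -0.22. In WT minus SCID this list ran from Rorb at -0.09 and Ciart, a repressor, at -0.07 to Bhlhe41 at 0.03 and Bhlhe40 at 0.13.

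Among D-box factors, Tef, a relative of Dbp, was at -0.15 in WT minus line and -0.19 in SCID minus line. Nfil3, which represses from the same sequences, was at 0.89 and 0.50, and at 0.39 in WT minus SCID, the gene value farthest from 0 in these lists in that comparison.

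Rhythmic output genes had 16 of 20 listed symbols in the table, and Ccrn4l, which was not matched, is an older symbol of Noct. Their median was 0.36 in WT minus line and 0.21 in SCID minus line, and 3 of 16 were 2-fold higher in each, as were 4.12% and 3.65% of all genes. Cdkn1a, the p21 cell cycle inhibitor, was at 1.45 and 1.29, and Sgk1, a glucocorticoid-induced kinase, was 2.30-fold and 2.62-fold higher. Tsc22d3, a glucocorticoid-induced leucine zipper gene, passed 2-fold in WT minus line at 1.04, and Klf11, a Krüppel-like factor, in SCID minus line at 1.07. Fkbp5, a further glucocorticoid-induced gene, was instead lowest at -0.56 and -0.60. Wee1, a kinase that holds back mitosis and a known E-box target, was at -0.41 in WT minus line, and Tspan4 was at -0.37 in SCID minus line. In WT minus SCID Alas1, the first enzyme of haem synthesis, was at 0.27 and Pnpla2, a lipase, at 0.26, with Klf9 at -0.23 and Klf11 at -0.22 lowest.

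The kinases, phosphatases, ubiquitin ligases and deubiquitinases listed for clock proteins lay near 0. Of these, 20 of 21 genes were in the table, with medians of -0.06 in WT minus line and 0.05 in SCID minus line. At 1.5-fold 0 of 20 were higher, where 11.3% of all genes in WT minus line and 11.0% in SCID minus line were, and 0 were lower, where 8.36% and 9.43% were. Csnk1e, the casein kinase 1 epsilon gene, was at 0.36 and 0.46 and Btrc, a ligase subunit for PER, at 0.38 and 0.32, while Usp2, a deubiquitinase and clock target, was at 0.35 in both. The lowest were the phosphatase genes Ppp1cc at -0.56 and -0.46, Ppp1ca at -0.52 and -0.56 and Ppp5c at -0.47 and -0.52. Between the hosts Btrc was at 0.06, and Fbxl21, a ubiquitin ligase subunit, and Ppp1cb were lowest at -0.36 and -0.19.

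Timeless and Tipin, which form a replication fork complex named for a fly clock gene, were both lower against the line. Timeless was at -0.59 in WT minus line and -0.57 in SCID minus line, and Tipin at -0.85 and -0.90. In WT minus SCID they were at -0.02 and 0.05.

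**Figure D5:**
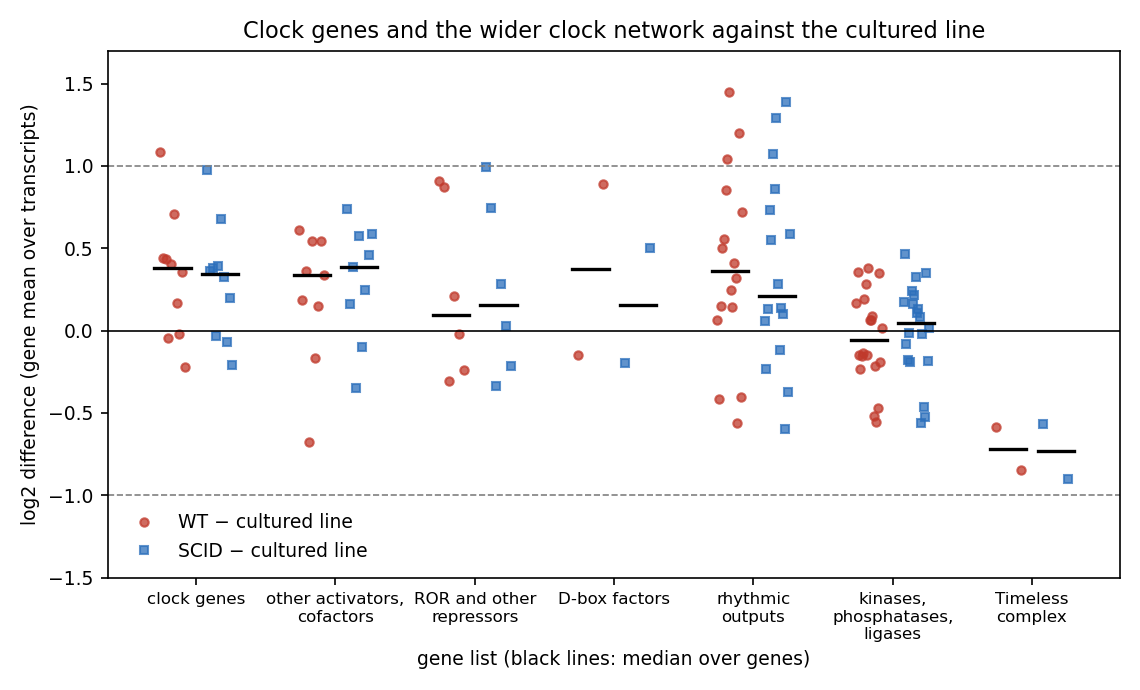
Log2 difference from the cultured line for genes of the clock and of 6 wider lists (y axis; circles, WT minus line; squares, SCID minus line; black lines, medians; dashed lines, 2-fold). Clock genes have medians of 0.38 and 0.34, the kinases, phosphatases and ligases lie around 0, and Timeless and Tipin lie below it.

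Other programmes differed from culture beside the clock genes. Of 13 immediate-early genes 11 were in the table, and their values ran from 0.59 to 1.96 in WT minus line and from 0.65 to 2.22 in SCID minus line, with medians of 1.68 and 1.89. In WT minus SCID their values ran from -0.27 to 0.30, with a median of -0.13 and 2 of 11 above 0, where 51.5% of all genes were. Per1 was at 0.11 there. That range holds all 10 clock gene values, so a place inside it does not tell Per1 from the others. The 8 proliferation genes had medians of -1.16 and -1.32. Of 14 macrophage markers 4 were in the table, with medians of 1.73 in WT minus line, 0.70 in SCID minus line and 1.04 in WT minus SCID. Col1a1, the only fibroblast marker of 8 in the table, was at 1.90 and 2.61, and 2 of 5 endothelial markers had medians of 1.37 and 1.21. None of the 6 T cell or 3 B cell markers was in the table, and of 3 NK cell markers Eomes was, at -0.63 and -0.61. Of the 6 markers of the tumour epithelium, 1 was above 0 in each comparison, Epcam at 1.59 and 1.25. The other 5 were below 0 in both, from Krt7 at -0.99 and -1.18 and Krt19 at -0.95 and -1.01 to Cdh1 at -0.19 and -0.36 and Krt18 at -0.21 and -0.26, and the list had medians of -0.27 and -0.39. The part of handling, proliferation or other cells in the clock gene values was not tested.

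Overlapping genes bear on a pair of further clock genes. Cry2 lies across D930015M05Rik on the opposite strand, which was at 0.33 in WT minus line and 0.15 in SCID minus line. Per3 lies across Gm5801, also on the opposite strand, at -0.37 and -0.42, the other sign from Per3.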

How the data were processed

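RNA was measured by stranded poly(A) RNA-seq in 3 libraries, 1 per group. The authors' deposited table holds fold changes per RefSeq transcript, taken here to be log2 since DESeq2 1.20.0, which reports on that scale, is among the tools in the submitters' processing notes, beside BWA, Partek, R 3.5.1 and mm9. The steps that made the fold changes, such as shrinkage or a row filter, are not given there. A column named only for its SCID side equalled SCID minus line less WT minus line within 1e-12 and, with its sign turned, gave WT minus SCID. The coordinates match GRCm38: all 16 clock gene transcripts lay in their RefSeq gene span.

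Gene values (mean over transcripts), percentiles and medians were computed with Python 3.11.15 and pandas 2.3.3 and tested on simulated data. A gene was called past 2-fold at a log2 of 1. No test and no p-value is given. The clock genes and lists were chosen with earlier results of these data known. Named genes are the 10 clock genes and, in each wider list, the 2 highest and 2 lowest per comparison; Tsc22d3 and the genes that overlap clock genes were named after their values were seen. A few genes that this rule picks are not reported here. Alternatives were the median or farthest transcript, coding transcripts, centring, other thresholds, list trimming and, chosen after seeing the data, removal of a fitted dependence on GC content and log10 length, each with its square, taken over the 93.2% of transcripts with a GENCODE vM21 sequence.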

Additional observations from a re-analysis of the deposited data

Results flagged for a closer look

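Cells from the WT and the SCID hosts stood on opposite sides of the line for 1 of 16 clock gene transcripts and 3 genes of the wider lists. Several of the values were close to 0, and with 1 library a group these differences were not tested. The share of all genes or transcripts with opposite signs was not computed, so these counts have no background to be set against. Clock NM_001289826 was at -0.18 in WT minus line and 0.01 in SCID minus line, a WT minus SCID value of -0.20. Fbxl21 was at -0.15 and 0.21, a WT minus SCID value of -0.36. Pnpla2 was at 0.14 and -0.12, a WT minus SCID value of 0.26. Sfpq was at -0.02 and 0.03, a WT minus SCID value of -0.050.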

How the results depend on the processing

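The number of clock genes higher by 2-fold in WT minus line, 1 as reported, was 2 at a 1.5-fold threshold, 0 at 4-fold, 0 after removal of the GC and length trend and 2 with each transcript counted. In SCID minus line it was 2 at 1.5-fold. Of 150 single-gene values under alternatives, 3 moved by more than the SD between transcripts, each in WT minus SCID. With the farthest transcript Arntl moved to 0.54 and Per3 to -0.18. Under removal of the trend Arntl moved to -0.22. That setting leaves out NM_001357070, and NM_007489 was at -0.22 as deposited, so the move reflects the transcript left out and not the trend. Many of the 150 could not move, so this count is no measure of robustness. Clock genes with 1 transcript keep their value under the median and the farthest transcript, and all 16 transcripts are coding. Centring shifted all genes alike, by the median over all genes. With the median transcript Clock was at 0.07 in WT minus SCID. None of the 21 medians over clock genes moved by more than the SD between transcripts, and those with coding transcripts only could not. That SD describes single transcripts and not a median over genes, so this count is no measure of robustness either. In WT minus SCID the median changed sign, from 0.04 to -0.02 after removal of the trend, and still moved by less than the SD of 0.22. Without Per1 the medians were 0.36 in WT minus line and 0.33 in SCID minus line, and after removal of the trend 0.23 and 0.27. Of 54 medians of wider lists 2 moved by more than the SD between transcripts, those of the D-box factors without Nfil3, which left Tef alone. The same limit of that SD holds for this count. With 50 bases after the start included, an ROR element core was found in a promoter of Arntl, and the share of all promoters with an E-box was 7.15%. No paired analysis was possible because each group has 1 library. Scalings and filters on low values need levels and were not run.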
